A study of Mus musculus with 3 samples.

Results

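The ion and water transport genes described here are all genes of the mouse table whose symbol begins with Slc4a, Slc5a, Slc9a, Slc12a, Atp1a, Atp1b, Aqp or Car followed directly by a digit. In all, 66 of the 17551 genes had such a symbol. Of these, 52 had at least 1 unique molecular identifier (UMI, 1 captured transcript) in 20 or more of the 4668 cells, and these 52 are the members. The 14 genes left out were seen in 19 cells or fewer, with Slc9a7 and Car8 at 19 cells just under the limit and Car6 at 27, Slc4a1 at 28 and Slc12a5 at 29 cells just above it. The members were 12 carbonic anhydrases (Car), 10 Slc4a genes, 8 Slc9a genes, 7 aquaporins (Aqp), 6 Slc12a genes, 3 Slc5a genes, and 3 alpha (Atp1a) and 3 beta (Atp1b) subunits of the sodium pump. A symbol is not a function: 3 members (Slc9a3r1, Slc9a3r2 and Slc4a1ap) encode adaptor proteins that bind transporters, and 49 encode transporters, channels, pump subunits or proteins of the carbonic anhydrase family.

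The cells came from 4 brains of female C57BL/6 mice aged 2 to 3 months, with no genetic change named in the labels. Naive brains held no tumour, and the others carried brain metastases grown from E0771 mammary carcinoma cells of the mouse, put into the carotid artery about 2 weeks before. Each brain was stained with its own hashtag antibody, the 4 suspensions were pooled into 1 single-cell library, and a density gradient that enriches immune cells came before it, so the shares of cell types are not those of the brain. No source used here ties a hashtag to a naive or a metastatic brain, so each brain is named by its hashtag and the conditions are not compared.

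The choroid plexus is a sheet of epithelium in the brain ventricles that makes cerebrospinal fluid. The sodium pump (Na,K-ATPase) in its apical membrane, which faces the fluid, sets up the sodium gradient. Sodium-coupled bicarbonate carriers, anion exchangers and chloride cotransporters move ions across the cell, carbonic anhydrases supply bicarbonate, and water follows, in part through the water channel Aqp1.

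Cluster 1 of the 11 deposited clusters held 880 cells, with 291, 206, 181 and 202 in the hashtag 1, 2, 3 and 4 brains. All 9 choroid plexus markers had their highest level there. Levels are UMIs of a gene summed over cells per 10000 UMIs of those cells. Ttr, the thyroid hormone carrier that this epithelium secretes, stood at 3017, Enpp2 at 120, and the transcription factor Otx2 at 1.32. The summed level of the 9 markers was 3185 in cluster 1, 1535 in cluster 5, 1478 in cluster 8, 520 in cluster 9 and 114 to 361 in the other 7 clusters, with the brains pooled. By brain the gap differed: cluster 1 stood at 3359, 3429, 3238 and 2771 in the hashtag 1 to 4 brains and cluster 5 at 2595, 2854, 1070 and 840. Cluster 8 was at 2767, 1245 and 523 in the hashtag 1, 3 and 4 brains. The summed level of 6 markers of ependyma, the lining of the ventricles, was also highest in cluster 1 with the brains pooled (3.05, beside 2.76 in cluster 8). Mia, Dynlrb2 and Foxj1 were highest in cluster 1, Ccdc153 and Tmem212 in cluster 8 and Rarres2 in cluster 9. Cluster 1 is called choroid plexus epithelium-like below. Cluster 5 had a median mitochondrial share of 14.8%, against 8.39% in cluster 1, and its role as a separate cell type was not tested. Ttr made up 10.3% and 11.5% of the UMIs of all cells outside cluster 1 in the hashtag 1 and 2 brains, and 1.66% and 1.55% in the hashtag 3 and 4 brains. This gap between the brains touches each comparison of cluster 1 with other cells below.

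All comparisons are descriptions: the deposited clusters were made from the expression of the same cells, so cluster 1 against other cells has no test. Intervals are exact 95% Poisson intervals for levels and exact binomial ones for shares, and both cover counting error only. Each UMI marks 1 captured 3' end, so levels need no scaling by transcript length, although capture can differ between genes.

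Levels of the members in cluster 1 ran without a gap from abundant transporters to genes with hardly a UMI. With the brains pooled, 14 members reached 0.5 UMIs per 10000 there, led by the pump subunit Atp1b1 (6.63), the sodium-potassium-chloride cotransporter Slc12a2 (5.27), the sodium-dependent bicarbonate transporter Slc4a10 (4.55) and the cytosolic carbonic anhydrase Car2 (2.75). Among the others were the sodium bicarbonate cotransporter Slc4a5 (2.20), Atp1b3 (2.03), the chloride-bicarbonate exchanger Slc4a2 (1.81), the membrane-bound carbonic anhydrases Car12 (1.59) and Car14 (1.32), the inositol carrier Slc5a3 (1.23), Aqp1 (0.92) and the vitamin carrier Slc5a6 (0.71). The other 38 members lay between 0.0014 (Car6) and 0.48 (Slc12a4). In cluster 1 of the hashtag 1 to 4 brains, 49, 49, 48 and 46 of the 52 members had a UMI.

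**Figure D1:**
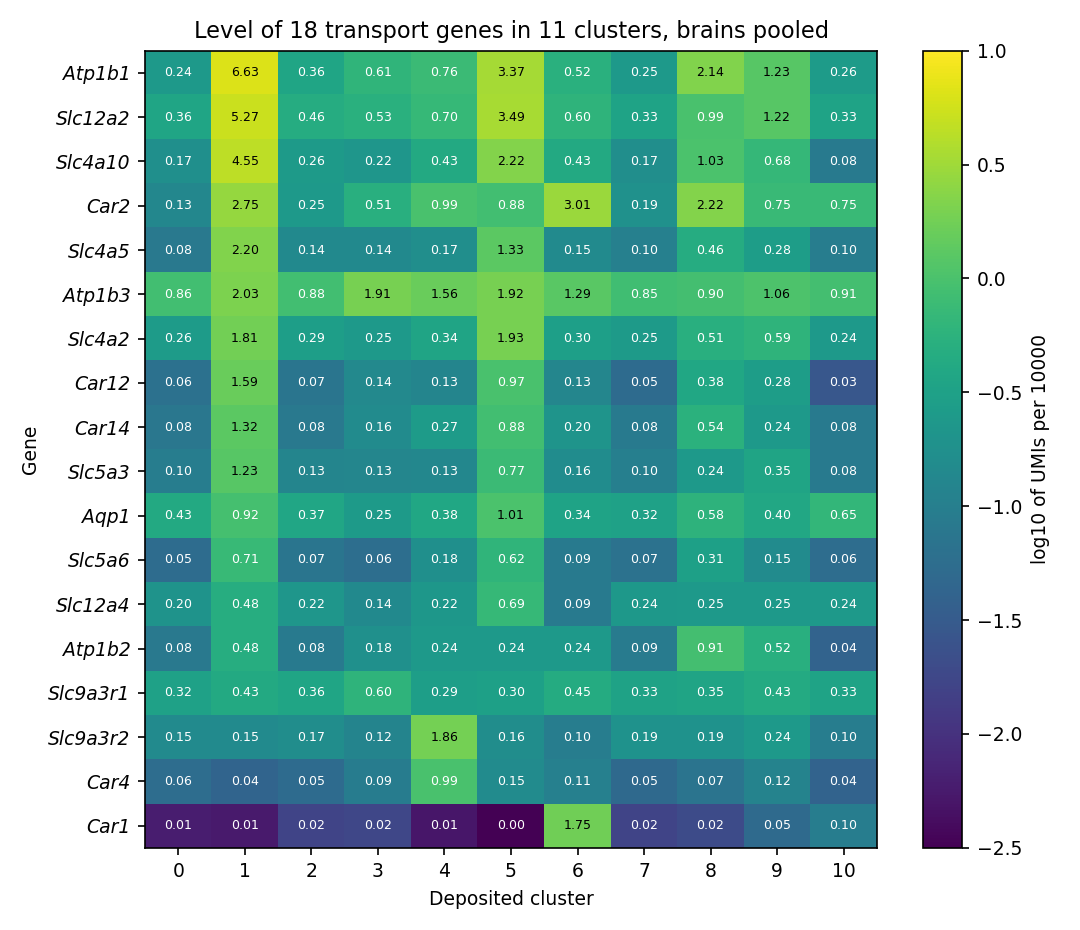
Level of 18 members (rows) in each deposited cluster (columns), brains pooled; the number in each cell is UMIs per 10000 and the colour its log10, with values under the scale drawn in the darkest colour. Atp1b1, Slc12a2 and Slc4a10 stand at 6.63, 5.27 and 4.55 in cluster 1 and cluster 5 is next, while Slc9a3r2 and Car4 peak in cluster 4 and Car1 in cluster 6.

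Of the 52 members, 13 (25%) had their highest level of the 11 clusters in cluster 1, against 12.8% of the 14044 genes seen in 20 or more cells. Among them were Atp1b1, Slc12a2, Slc4a10, Slc4a5, Car12, Car14, Slc5a3, Slc5a6, Atp1b3, Car10, Slc5a5 and Car11. Cluster 5 held the highest level of 11 members (background 17.7%) and cluster 8 that of 9 (background 7.55%). Clusters 3 and 4 led for 5 each (background 17.3% and 11.1%), cluster 10 for 4 (7.96%), clusters 0 and 6 for 2 each (3.18% and 7.65%), cluster 7 for 1 (6.29%), and clusters 2 and 9 for none (3.47% and 5.04%).

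No member reached the set rule of a level at least 4 times that of all other cells of the same brain in each of the 4 brains, a rule that 0.157% of all genes met. None was 4-fold lower in each brain either (background 0.0641%). Within single brains, 2 members were 4-fold higher in hashtag 1 (background 1.57%), 1 in hashtag 2 (background 0.555%), 14 in hashtag 3 (background 10.2%) and 18 in hashtag 4 (background 11%). The 2 brains with few calls are those whose other cells held most Ttr. At 2-fold in each brain, 11 members (21.2%) were higher in cluster 1, against 4.53% of all genes: Atp1b1, Slc12a2, Slc4a10, Slc4a5, Slc4a2, Car12, Car14, Car10, Slc5a3, Slc5a5 and Slc5a6. The median log2 fold of the 52 members was 0.54, -0.10, 1.16 and 1.0 in the hashtag 1 to 4 brains, beside -0.14, -0.53, -0.09 and -0.02 over all genes. The 0.54 of the members in hashtag 1 and the -0.53 of all genes in hashtag 2 are floor values. They equal the fold of a gene with 3 UMIs or fewer on both sides, such as Aqp7. Such a fold is set by the UMI totals of the compared cells and not by expression. Scaling by UMIs other than Ttr raises each fold of cluster 1, of members and all genes alike, by 0.39, 0.38, 0.51 and 0.42 on the log2 scale in the 4 brains.

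The count at 4-fold depended on which cells were compared. When cells with a mitochondrial share of 10% or more were left out, 10 members were at least 4-fold higher in each brain (background 1.59%), namely those 11 without Slc5a5. Slc4a10 then stood 9.30, 8.06, 25.3 and 20.6 times higher in the hashtag 1 to 4 brains, and Car12 11.2, 10.1, 21.0 and 22.1 times. The cells left were 199, 132, 162 and 162 in cluster 1 and 431, 141, 1148 and 1757 outside it. Leaving cluster 5 out of the other cells, an alternative chosen after the data were seen, gave 2 members (Slc4a5 and Car12, background 0.57%). The source of the Ttr in the other cells was not tested.

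**Figure D2:**
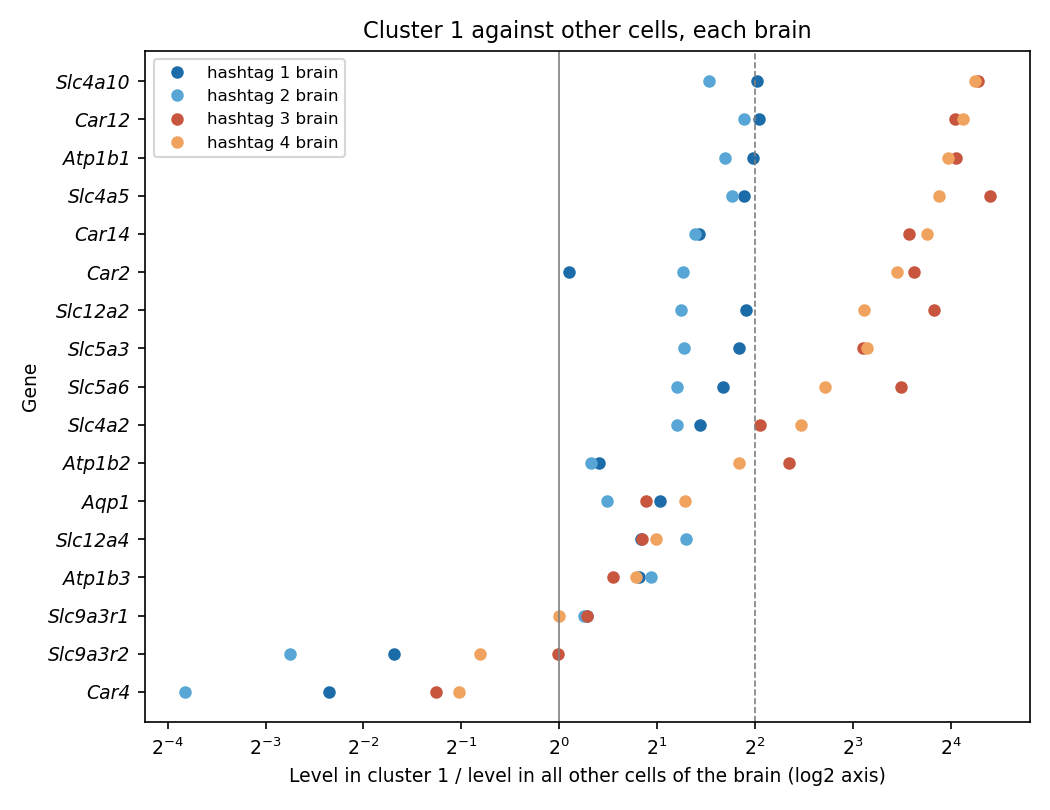
Level in cluster 1 divided by the level in all other cells of the same brain, for 17 members, on a log2 axis; each dot is 1 brain, the solid line marks equal levels and the dashed line 4-fold. Slc4a10 ranges from 2.90-fold in the hashtag 2 brain to 19.4-fold in the hashtag 3 brain, whereas Atp1b3 stays between 1.46-fold and 1.91-fold.

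The promoters of the 11 members at least 2-fold higher in each brain are the sequences nearest to this pattern. RefSeq promoter windows (GRCm38.p6) matched 37 of the 52 members and 10 of the 11, with 14 start sites. The windows below are the 250 bases before the start site of 5 of them, 5' to 3' on the gene's own strand, shown because a pump subunit, a bicarbonate carrier, an anion exchanger and 2 membrane-bound carbonic anhydrases are among them. Capitals mark a match, on either strand, to TAATCC, the core bound by Otx-type homeodomain factors, or to GTTGCC, a half-site of Rfx factors. Both motifs were chosen after the levels were seen.
Atp1b1 chr1:164458356-164458605 (minus strand): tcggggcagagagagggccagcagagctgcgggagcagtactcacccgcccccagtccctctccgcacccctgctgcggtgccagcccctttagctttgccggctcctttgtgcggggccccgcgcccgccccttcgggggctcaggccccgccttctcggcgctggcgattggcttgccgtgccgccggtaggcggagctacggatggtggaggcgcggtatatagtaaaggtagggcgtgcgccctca
Slc4a5 chr6:83237125-83237374 (plus strand): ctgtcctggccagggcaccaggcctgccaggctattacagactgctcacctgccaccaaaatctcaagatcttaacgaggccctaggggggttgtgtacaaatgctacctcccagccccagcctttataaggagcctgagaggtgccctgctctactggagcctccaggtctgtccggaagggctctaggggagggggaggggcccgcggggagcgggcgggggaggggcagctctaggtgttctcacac
Car12 chr9:66713436-66713685 (plus strand): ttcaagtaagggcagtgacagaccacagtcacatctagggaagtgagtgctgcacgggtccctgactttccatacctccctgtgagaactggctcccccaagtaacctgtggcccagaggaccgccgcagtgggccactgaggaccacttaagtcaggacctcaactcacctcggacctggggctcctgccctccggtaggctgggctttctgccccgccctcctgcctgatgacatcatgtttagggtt
Car14 chr3:95904686-95904935 (minus strand): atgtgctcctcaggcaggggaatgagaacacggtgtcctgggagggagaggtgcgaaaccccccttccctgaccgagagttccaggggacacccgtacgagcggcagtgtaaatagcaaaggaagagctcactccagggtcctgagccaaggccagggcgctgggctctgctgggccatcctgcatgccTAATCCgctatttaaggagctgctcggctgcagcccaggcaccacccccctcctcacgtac
Slc4a2 chr5:24425594-24425843 (plus strand): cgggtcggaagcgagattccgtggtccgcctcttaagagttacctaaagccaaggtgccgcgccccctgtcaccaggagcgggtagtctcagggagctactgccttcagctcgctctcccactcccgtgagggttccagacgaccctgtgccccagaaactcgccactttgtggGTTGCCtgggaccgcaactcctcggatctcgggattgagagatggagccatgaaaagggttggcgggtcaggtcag
Of the 14 windows, 1 held TAATCC (7.14%, Car14, first base at -61 from the start), beside 6.25% of all 32851 RefSeq windows of this length. GTTGCC was in 2 of them (14.3%, the second start of Slc4a2 at -76 and Slc5a5 at -129), beside 10.4% of all windows. Both shares lay near those of all windows. The median G and C content was 63.8% in the 14 windows and 52.4% in all. A match is a string of letters, not a bound site.

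The leading beta subunit of the sodium pump in cluster 1 was Atp1b1, which carries the alpha subunit to the membrane. Atp1b1 stood at 8.49 (95% interval 8.08 to 8.92), 8.55 (8.09 to 9.03), 5.27 (4.94 to 5.61) and 4.55 (4.25 to 4.86) UMIs per 10000 in cluster 1 of the hashtag 1 to 4 brains. In the other cells of those brains it was at 2.16, 2.64, 0.32 and 0.29, so cluster 1 was 3.94, 3.23, 16.6 and 15.8 times higher. The lowest cluster 1 value lay above the highest value of the other cells. The hashtag 1 and 2 brains were high in both compartments.

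Among beta subunits Atp1b1 took 75.2%, 71.3%, 73.7% and 68.7% of the UMIs in cluster 1 of the 4 brains. The ubiquitous Atp1b3 took 20.9%, 24.5%, 18.8% and 24.8%, and Atp1b2, a subunit known from astrocytes, 3.95%, 4.24%, 7.51% and 6.54%. With the brains pooled, Atp1b1 led in clusters 5 (60.9%), 8 (54.1%) and 9 (44.0%) too. In the other 7 clusters the pooled order was turned, with Atp1b3 at 60.9% to 74.7%. By brain, the order outside cluster 1 differed. All other cells, clusters 5, 8 and 9 included, held Atp1b1 at 2.16 and 2.64 and Atp1b3 at 1.34 and 1.53 in the hashtag 1 and 2 brains. In the hashtag 3 and 4 brains Atp1b1 was at 0.32 and 0.29 and Atp1b3 at 0.92 and 0.95. Levels of Atp1b3 itself lay close together in cluster 1 (2.03, 95% interval 1.93 to 2.14), cluster 5 (1.92, 1.65 to 2.21) and the leukocyte cluster 3 (1.91, 1.71 to 2.13), the 3 intervals overlapping.

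At 2-fold, 3 members (5.77%) were lower in cluster 1 in each brain, under the background of 7.31%. Among them were the capillary enzyme Car4 and the cytosolic carbonic anhydrase Car13. Car13 stood at 0.021, 0.013, 0.034 and 0.048 in cluster 1 of the hashtag 1 to 4 brains and at 0.066, 0.058, 0.111 and 0.115 in the other cells, and was named after its values were seen. Its lowest count in cluster 1 of a brain was 2 UMIs, under the floor of 3.

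**Figure D3:**
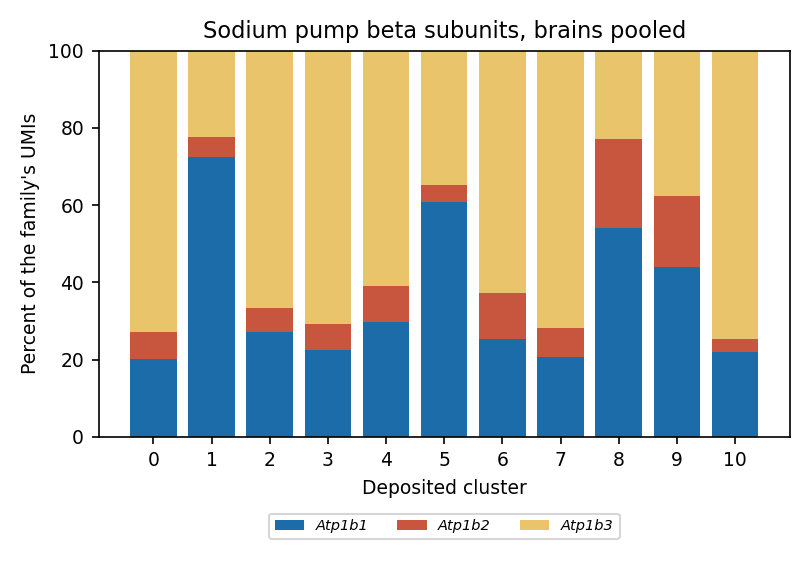
Share of the UMIs of the sodium pump beta subunits taken by each gene, in percent, in each deposited cluster with the brains pooled. Atp1b1 takes 72.5% of them in cluster 1, and Atp1b3 leads in 7 clusters.

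Among the Slc12a genes, most UMIs of cluster 1 came from 1 gene. Slc12a2, which carries sodium, potassium and chloride together, was at 6.01 (95% interval 5.66 to 6.37), 5.69 (5.31 to 6.08), 6.09 (5.73 to 6.46) and 3.45 (3.19 to 3.72) in cluster 1 of the hashtag 1 to 4 brains. The hashtag 4 brain was low and the other 3 lay close together. Other cells stood at 1.60, 2.39, 0.43 and 0.40. Slc12a2 took 84.5% to 90.8% of the UMIs of its family in cluster 1. The potassium-chloride cotransporter Slc12a4 followed at 0.52, 0.62, 0.40 and 0.42, which was 1.78, 2.46, 1.80 and 1.98 times the other cells. The relatives Slc12a7 and Slc12a9 were at 0.088 and 0.086 in cluster 1, and Slc12a5, the neuronal potassium-chloride cotransporter, at 0.0071. Slc12a9 had its highest level (0.31) in cluster 3, where leukocyte markers were highest.

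A trio of bicarbonate genes of the Slc4a family, by contrast, shared the lead. Slc4a10, which brings sodium and bicarbonate into the cell, stood at 5.23 (95% interval 4.91 to 5.56), 5.88 (5.50 to 6.28), 3.89 (3.60 to 4.19) and 3.46 (3.20 to 3.74) in cluster 1 and at 1.29, 2.03, 0.20 and 0.18 in the other cells. The folds were 4.06, 2.90, 19.4 and 19.1. Slc4a5, known from the apical membrane of this epithelium, was at 2.45, 2.53, 2.37 and 1.55 against 0.66, 0.74, 0.11 and 0.10. As with Slc12a2, the hashtag 4 brain alone was low. Slc4a2, the exchanger of chloride for bicarbonate, was at 2.17, 2.47, 1.13 and 1.56 against 0.80, 1.07, 0.27 and 0.28, and here the hashtag 3 brain was lowest. Its pooled intervals in cluster 5 (1.93, 1.66 to 2.22) and cluster 1 (1.81, 1.71 to 1.91) overlapped.

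Slc4a10 took 50.6% to 52.8% of the Slc4a UMIs of cluster 1 in the 4 brains, Slc4a5 22.6% to 31.1% and Slc4a2 14.8% to 22.8%. The remaining 7 Slc4a members were rare in cluster 1, from 0.0028 (the red cell anion exchanger Slc4a1) to 0.11 (the sodium bicarbonate cotransporter Slc4a7). Slc4a4, the electrogenic sodium bicarbonate cotransporter known from astrocytes and kidney, was at 0.016 in cluster 1 and highest in cluster 8 (0.35). It was named after its values were seen.

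The carbonic anhydrases divided by cluster. Car2, the fast cytosolic enzyme, was at 2.73, 3.31, 2.89 and 2.21 in cluster 1 of the 4 brains. The other cells stood at 2.54, 1.38, 0.23 and 0.20, so the hashtag 1 brain had nearly equal levels inside and outside cluster 1 (1.07-fold) and the hashtag 3 brain a 12.4-fold gap. Cluster 6, with neutrophil markers, had the highest pooled Car2 level (3.01, 95% interval 2.67 to 3.39), next to cluster 1 (2.75, 2.63 to 2.88) and cluster 8 (2.22, 1.94 to 2.53). The intervals of the first 2 overlapped. The spread over cells did differ: a Car2 UMI was found in 17.5% of cluster 6 cells and 47.3% of cluster 1 cells when each cell was thinned to 2495 UMIs. Before thinning the shares were 19.7% and 82.5%, at median depths of 3715 and 7282.5 UMIs.

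Car12 and Car14 work on the outer face of the membrane and were highest in cluster 1. Car12 was at 1.98, 2.15, 1.02 and 1.3 in cluster 1 and at 0.48, 0.58, 0.06 and 0.07 in the other cells, which is 4.11, 3.71, 16.6 and 17.4 times higher. Car14 was at 1.47, 1.64, 1.02 and 1.19 against 0.54, 0.63, 0.09 and 0.09. Both were highest in the hashtag 2 brain and lowest in the hashtag 3 brain. Of all Car UMIs in cluster 1, Car2 took 40.6% to 55.0%, Car12 19.4% to 29.6% and Car14 19.5% to 23.3%. Car10, a relative with no enzyme activity that was named after its values were seen, was at 0.34, 0.37, 0.17 and 0.23 in cluster 1, with folds of 3.21, 2.59, 21.4 and 19.5.

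Car1, the red cell enzyme, came from few cells. Cluster 6 of the hashtag 1 brain held 164 Car1 UMIs in 9 of its 171 cells, whereas cluster 6 of the other 3 brains held none in 9, 26 and 17 cells, which allows levels of up to 1.08, 0.27 and 0.39 at 3 UMIs. In cluster 1 its pooled level was 0.0057. The summed erythroid markers were highest in cluster 10 with the brains pooled (110), though at 2.99 and 2.55 there in the hashtag 3 and 4 brains. They were at 63.9 in cluster 8, 30.4 in cluster 6, 28.8 in cluster 4 and 5.70 in cluster 1. In the hashtag 1 brain they were at 23.1 in cluster 6, 138 in cluster 8 and 8.86 in cluster 1, and their part in the Car1 and Car2 values was not tested. Car4, anchored to the outer face of capillary cells, peaked in the endothelial cluster 4 at 2.11, 1.31, 0.84 and 0.49 in the hashtag 1 to 4 brains. Cluster 1 held it at 0.064, 0.033, 0.034 and 0.037. All 4 endothelial values exceeded all 4 values of cluster 1.

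Aqp1 was the main aquaporin of cluster 1, and its highest pooled level was in cluster 5. The water channel stood at 1.02 (95% interval 0.88 to 1.18), 0.96 (0.81 to 1.14), 0.75 (0.63 to 0.89) and 0.93 (0.80 to 1.08) in cluster 1 of the 4 brains, whose intervals overlap. The other cells were at 0.50, 0.69, 0.40 and 0.38, and cluster 1 was 2.04, 1.41, 1.85 and 2.44 times higher. Aqp1 took 82.7% to 87.8% of all Aqp UMIs in cluster 1. Its pooled order over clusters began with cluster 5 (1.01, 0.83 to 1.23), cluster 1 (0.92, 0.85 to 0.99), cluster 10 (0.65, 0.48 to 0.87) and cluster 8 (0.58, 0.44 to 0.75). The intervals of clusters 5 and 1 overlapped, and that of cluster 1 overlapped the next only at its lower end.

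Clusters 0, 2 and 7 had the highest summed carcinoma markers, at 12.3, 12.6 and 13.1 beside 1.44 to 10.9 in the others. Rhox5, Krt8 and Esx1 carried these sums. Krt18 was at 0.073, 0.084 and 0.086 there and at 1.35 in cluster 1, and Epcam was at most 0.0057 there and at 0.034 in cluster 1. They held Aqp1 at 0.43, 0.37 and 0.32. In cluster 0 of the hashtag 4 brain 395 Aqp1 UMIs came from 704 cells. Aqp4, the water channel of astrocyte end-feet, was at 0.013 in cluster 1 and highest in cluster 8 (0.30), where the summed astrocyte markers were also highest (5.16, beside 1.70 in cluster 1). Of these markers Gfap, Aldoc, Slc1a3 and Gja1 were highest in cluster 8, whereas Mfge8 was at 1.61 there and at 2.88 in cluster 5. The summed fibroblast markers were highest in cluster 8 too (2.97, beside 0.34 in cluster 1). Aqp11, an intracellular aquaporin, was highest in the endothelial cluster 4 (0.30). Aqp4 and Aqp11 were named after their values were seen.

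The Slc5a and Slc9a families contributed carriers of another kind. Slc5a3, which takes up sodium with myo-inositol, was at 1.52, 1.70, 0.76 and 0.99 in cluster 1 and at 0.43, 0.70, 0.09 and 0.11 in the other cells. Slc5a6, a carrier of biotin and pantothenate, was at 0.87, 0.76, 0.75 and 0.49 against 0.27, 0.33, 0.07 and 0.07. The iodide carrier Slc5a5 was rarer, at 0.16, 0.27, 0.10 and 0.16, with folds of 2.43, 4.63, 3.28 and 5.35. Sodium-proton exchangers were sparse: no transporter of the Slc9a family reached 0.5 in cluster 1. Slc5a5 was named after its values were seen.

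The adaptors did not follow the transporters. Slc9a3r1, an adaptor of epithelial apical membranes, was at 0.46, 0.50, 0.42 and 0.35 in cluster 1, which is 1.22, 1.19, 1.22 and 1.0 times the other cells. Slc9a3r2 was at 0.15, 0.15, 0.20 and 0.12 in cluster 1 and at 2.81, 3.17, 1.54 and 1.22 in the endothelial cluster 4.

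**Figure D4:**
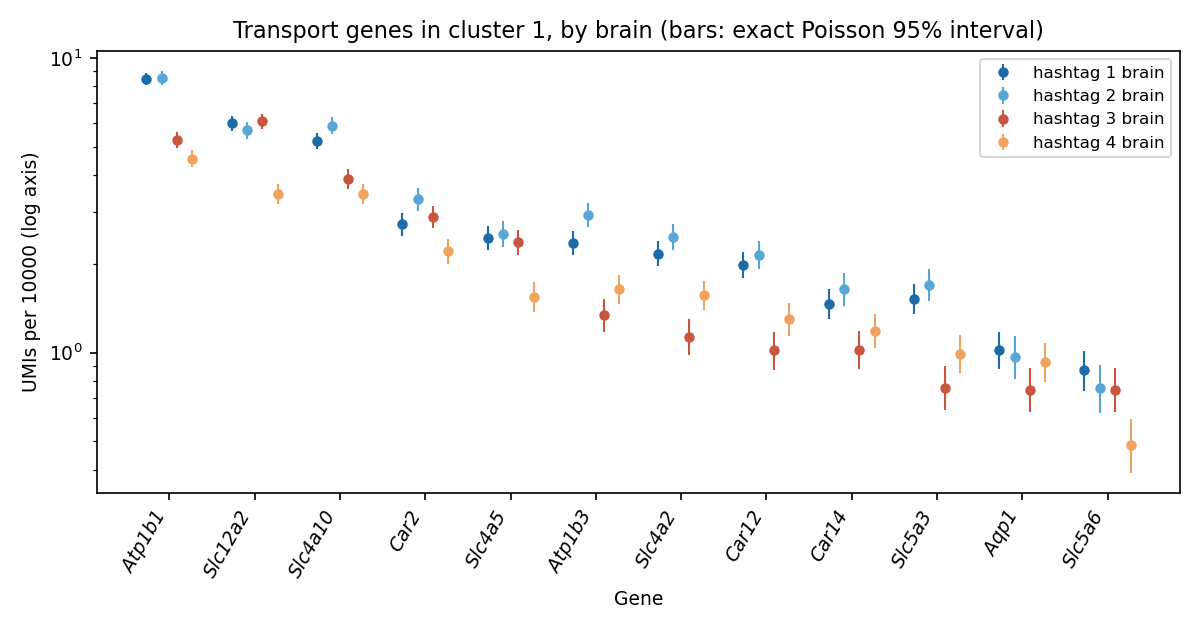
Level in cluster 1 of each brain (UMIs per 10000, log axis) for 12 members at 0.5 or more; dots are brains and bars exact Poisson 95% intervals. The hashtag 1 and 2 brains sit above the hashtag 3 and 4 brains for Atp1b1, Slc4a10, Atp1b3 and Car12, while Aqp1 stays between 0.75 and 1.02 in all 4.

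The 4 brains differed within cluster 1. Of the 14 members at 0.5 or more, the hashtag 2 brain was highest for 11, hashtag 1 for 2 and hashtag 3 for 1. The lowest brain was hashtag 4 for 8 and hashtag 3 for 6. Over the 2002 genes that reached 0.5 in cluster 1, the hashtag 1 to 4 brains were highest for 15.1%, 32.8%, 14.7% and 37.4%, and lowest for 14.2%, 33.4%, 26.5% and 25.9%. The ratio of the highest to the lowest brain had a median of 1.73 over the 14 members and 1.43 over the 2002 genes. It was 2.24 for Slc5a3, 2.19 for Slc4a2 and Atp1b3 and 2.11 for Car12. The share of Ttr in cluster 1 was 31.6%, 32.1%, 31.0% and 26.5%, and the median UMI total per cell 6100, 7265.5, 8795 and 7847.5. The median mitochondrial share was 8.97%, 8.94%, 7.01% and 7.98%. Assignment to a brain was less clear in cluster 1 than in most other cells. The median share of a cell's own hashtag was 75.3%, 74.0%, 76.7% and 78.4% there, against 80.2%, 74.4%, 90.4% and 94.8% outside it. Cells with at least 80% own hashtag made up 40.5%, 34.0%, 40.3% and 46.5% of cluster 1. The part of these in the differences between brains was not tested.

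Detection was also counted per cell. Whether genes occurred together beyond their single shares was not tested. Cells were thinned to 2495 UMIs each so that depth would not set the shares. A UMI of Atp1b1 was then in 76.1% of cluster 1 cells and in 9.90% of the leukocyte cluster 3 (95.3% and 15.8% before thinning). For Slc12a2 the thinned shares were 68.1% and 10.6% (91.9% and 16.8% before), for Slc4a10 65.8% and 3.96% (90.3% and 6.93%), and for Aqp1 20.9% and 5.94% (47.5% and 7.67%). The median depth before thinning was 7282.5 UMIs in cluster 1 and 3815 in cluster 3. Of 15 genes listed for fluid secretion, a thinned cell of cluster 1 held a median of 5, with 6 in the hashtag 2 brain, 5 in the hashtag 1 and 3 brains and 4 in the hashtag 4 brain. At least 5 of the 15 were found in 60.1% of cluster 1 cells, 42.9% of cluster 5, 16.0% of cluster 9, 13.0% of cluster 8 and at most 6.43% in the other clusters, with the brains pooled. By brain, cluster 1 stood at 64.6%, 74.3%, 50.8% and 47.5% in the hashtag 1 to 4 brains and cluster 5 at 69.4%, 75.9%, 23.6% and 23.8%, so cluster 5 lay above cluster 1 in the first 2. In the hashtag 1 brain cluster 9 reached 38.2% and cluster 0 29.5%. Before thinning the median in cluster 1 was 9 of 15. Cluster 2 differed between brains too, with a median of 5 of 15 in the hashtag 1 and 2 brains (41 and 24 cells) and 1 in the other 2. Its cells in those first 2 brains held 10.6% and 11.8% Ttr and a median mitochondrial share of 13.2% and 13.3%, against 1.37% and 1.32% Ttr and shares of 1.20% and 1.18% in the hashtag 3 and 4 brains. The part of these in the counts was not tested.

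The UMIs of each member were also set against those of Ttr in the same cluster. Atp1b1 UMIs per Ttr UMI in the other 10 clusters were 0.68 to 1.15 times those of cluster 1, with the brains pooled. For Slc4a10 the range was 0.48 to 1.03, for Slc4a5 0.44 to 1.27, for Car12 0.48 to 1.29 and for Slc12a2 0.40 to 1.74. Ttr itself ranged from 110 to 1438 UMIs per 10000 over these clusters. Aqp1, at 1.34 to 19.6 times, exceeded the cluster 1 ratio in each of the 10 clusters. Within the hashtag 1 brain alone, cluster 8 lay below that ratio, at 0.55 for Aqp1.

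Of the 14 members at 0.5 or more, 7 (50%) stayed at or below 2 times the cluster 1 ratio in each other cluster, against 4.65% of 2002 genes, a limit chosen after the values were seen. They were Atp1b1, Slc12a2, Slc4a10, Slc4a5, Car12, Car14 and Slc5a3. The part of free RNA was not tested. Car2 broke from Ttr in cluster 6 (11.9 times) and Slc4a2 in cluster 10 (3.59 times).

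**Figure D5:**
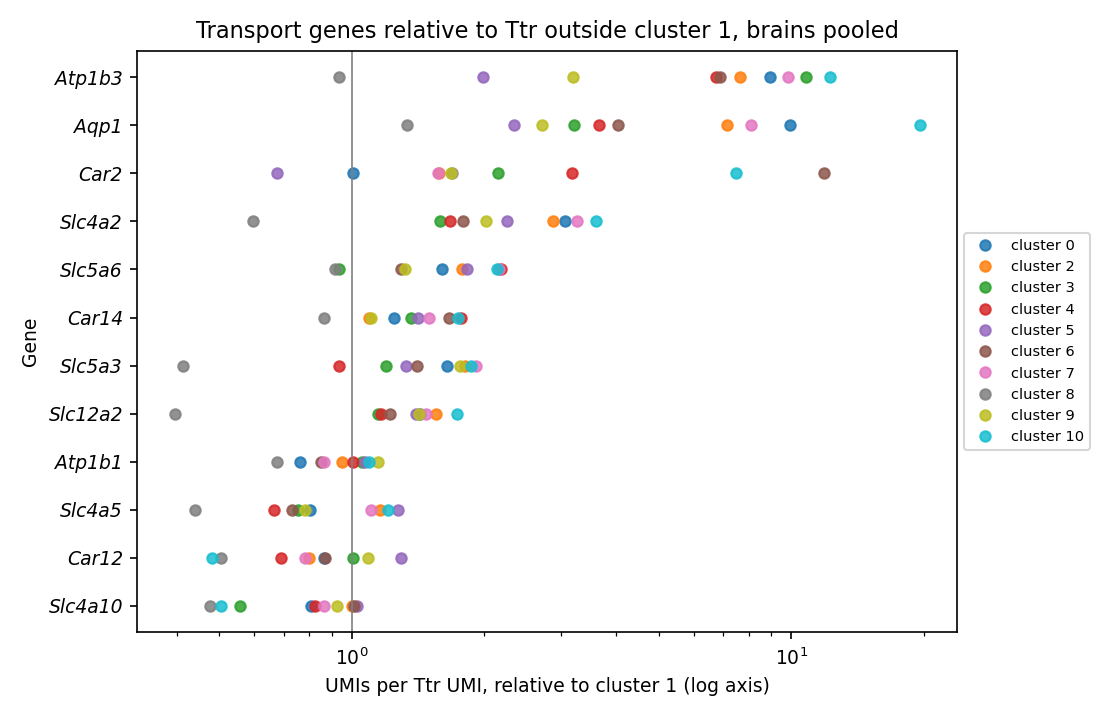
UMIs per Ttr UMI in each of the other 10 clusters relative to cluster 1 (log axis), brains pooled; 12 members are drawn, each dot is a cluster and the line marks the ratio of cluster 1. Slc4a10 (0.48 to 1.03) and Atp1b1 (0.68 to 1.15) lie around the line, while Atp1b3 and Aqp1 reach 12.2 and 19.6.

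A list of other genes of fluid secretion, which are not members by symbol, was read in the same way. Of 61 listed, 52 were seen in 20 or more cells. One of them, Kcnj13, which encodes a potassium channel of the apical membrane, was at least 4-fold higher in cluster 1 in each brain (background 0.157%). Kcnj13, Clic6 and Prlr are also among the 9 markers by which cluster 1 was named, so their levels repeat that choice. Kcnj13 stood at 6.48, 8.16, 3.71 and 4.49 against 1.42, 1.80, 0.17 and 0.19 in the other cells. At 2-fold, 17 (32.7%) were higher, beside the 4.53% of all genes, and 2 (3.85%) were lower, under the background of 7.31%. The 17 include Kcnj13, Clic6 and Prlr, and the list was chosen with earlier results of these data known. The share is thus a description and not separate support. The median log2 fold of the 52 was 0.74, 0.29, 1.27 and 1.29 in the hashtag 1 to 4 brains.

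The pump regulator Fxyd1 had the highest level of this list, at 11.9, 11.6, 13.9 and 11.03 in cluster 1 against 4.63, 4.92, 0.78 and 0.80. The chloride channel protein Clic6 was at 6.61, 7.49, 5.48 and 4.64, with folds of 3.51, 2.89, 20.8 and 18.0. The kinase Stk39, which activates Slc12a2, was at 2.85, 2.98, 2.26 and 1.95, with folds of 2.89, 2.47, 10.1 and 9.04. Its partner Cab39l was at 2.97, 3.26, 2.17 and 2.16, and the kinase Sgk1 at 5.32, 5.57, 4.24 and 4.08. These 5 genes were at least 2-fold higher in each brain.

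Receptors and further carriers of the list followed. The prolactin receptor Prlr was at 7.95, 7.63, 4.66 and 4.78, the serotonin receptor Htr2c at 5.10, 5.36, 2.52 and 2.86, the cation channel Trpm3 at 2.81, 2.82, 2.95 and 1.73, and the sulfate carrier Slc13a4 at 2.11, 2.3, 1.65 and 1.37. Their folds ran from 2.52 (Trpm3, hashtag 2 brain) to 28.9 (Trpm3, hashtag 3 brain). Ezr, which links apical membranes to actin, was broader, at 1.59 to 1.90 times the other cells. The 2 genes at least 2-fold lower in cluster 1 were Fxyd5, at 0.64, 0.56, 0.70 and 1.14 against 2.49, 2.64, 2.74 and 2.73, and Clic1, at 1.32, 1.0, 1.64 and 2.02 against 3.97, 3.37, 5.84 and 5.85. They were named after their values were seen. Fxyd5 and Fxyd1 belong to the same family of pump regulators and differed in direction between cluster 1 and the other cells.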

How the data were processed

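The members and gene lists were chosen with earlier results of these data known. The authors deposited gene values on a natural log scale, ln(1 + x), where x is a UMI count scaled to 10000 per cell, a unit read from the values. The submitters' processing notes name Cell Ranger 2.1, Seurat 2.3.4 and mm10, with no roles, and cell filters are not stated there. A second deposited table holds, for each cell and as computed by the authors, the UMI count, hashtag and antibody tag counts (CITE-seq-Count 1.3.4), the mitochondrial fraction, a hashtag class and a cluster number. Its deposited hashtag assignment p-value and q-value were not used.

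Values were turned back into UMIs, and 99.8% of nonzero values were whole within 0.01 UMIs. Sums per cell lay within 10 UMIs of the deposited total (2495 to 43038 per cell). The class equalled the top hashtag in 100% of cells. All cells were kept, without a doublet caller. UMIs were summed by cluster and brain (Python 3.11.15, numpy 2.4.6, pandas 2.3.3, scipy 1.17.1, matplotlib 3.10.9). By brain, levels are given for clusters with at least 20 cells, apart from cluster 6. The fold divides the level in cluster 1 by that in all other cells of the brain, and either level is set to 3 UMIs if lower. A call of higher needs more than 3 UMIs in cluster 1 of each brain, and a call of lower more than 3 UMIs in the other cells. The fold rule was tested on simulated data. Members were named if they reached 0.5 UMIs per 10000 in cluster 1, or had their highest level in another cluster at 0.5 or more. Of the other secretion genes, those called and the next 10 by level were named. Thinned cells have 2495 UMIs each, drawn with a fixed seed, and no cell was too shallow. Results for some members are counted but not reported by name here. Alternatives covered scaling, cells, fold, filter, depth and leaving out each brain.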

Additional observations from a re-analysis of the deposited data

How the results depend on the processing

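The number of members at least 4-fold higher in cluster 1 in each brain (0) became 3 when levels were scaled by UMIs other than Ttr, 4 with cells of at least 80% own hashtag, 10 with mitochondrial shares under 10%, 11 at 2-fold and 2 without cluster 5. Leaving out 1 brain gave 0 to 2, with 2 (Slc4a10 and Car12) without the hashtag 2 brain. For the other secretion genes the count of 1 became 0 as a mean over cells, 6 without Ttr, 6 with own-hashtag cells, 14 with mitochondrial shares under 10%, 17 at 2-fold, 0 at 8-fold, 0 with clusters weighted equally, 0 after thinning and 6 without cluster 5. Leaving out 1 brain gave 1 to 7, with 7 without the hashtag 2 brain. Over all genes the share called higher was 1.59% with mitochondrial shares under 10%, 4.53% at 2-fold and 0.57% without cluster 5, beside 0.157% as reported. It was not computed for the other settings, so whether those changes are particular to the listed genes was not tested. At 2-fold, 3 members (5.77%) and 2 other secretion genes (3.85%) were lower, beside 7.31% of all genes, against 0 of each at 4-fold. A looser or stricter fold passes more or fewer genes by construction. Scaling without Ttr raises each fold of cluster 1, by 0.38 to 0.51 on the log2 scale over the brains, also by construction. The cause of the other changes was not tested. The 13 members with their highest level in cluster 1 became 9 to 18 and stayed within 1.5 times. Of 209 fold values compared over 11 alternatives, 197 moved by less than the spread between brains, 11 moved by more, and that of Slc9a3r1 changed sign, with a log2 fold of 0.27 as reported and -0.11 in cells of at least 80% own hashtag. Leaving out 1 of the 4 brains cannot move a median fold by more than the spread between brains. The 19 values of each such setting are thus among the 197 by construction and say nothing on stability. Each fold sets cluster 1 against other cells of the same brain and is thus paired within brains. With 1 brain per hashtag, intervals cover counting error only, and members under 0.1 UMIs per 10000 rest on few UMIs in each brain.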
